A study of Mus musculus with 15 samples.

Results

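Sodium nitrite, a preservative of cured meat, was given to mice together with fructose, and the liver transcriptome of these mice was set against that of mice given fructose alone. The 6 arrays compared, 3 per group, were those labelled fructose with nitrite and fructose, out of 15 in the series, and every probe set that was not a control was tested, which left 22206 of 28846 entries on the array. All mice were C57BL/6 animals that carried a human gut microbiota: they descended from germ-free mice colonised with the faeces of a healthy donor and were bred for several generations. Both groups drank water with 10% fructose for 11 weeks from 3 weeks of age, and the nitrite group also received sodium nitrite at 0.36 mg per kg body weight per day. The labels give the age as 11 weeks, whereas the study's methods put the end of treatment at 14 weeks. The other groups, with 3 arrays each, drank water, or fructose with sodium benzoate at 4.8 mg per kg per day, or fructose with potassium sorbate at 19 mg per kg per day. Each group held 8 mice, with the sexes evenly divided per the methods, and the labels give neither the sex of an animal nor whether its RNA came from 1 mouse, so p-values measure the spread between these arrays. Whole liver RNA (200 ng per array) was hybridised to Clariom S mouse arrays, and all values below are log2 signals or differences of log2 signals. A difference of 1 is a 2-fold change.

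The liver meets swallowed nitrite after absorption from the gut and can reduce it to nitric oxide, a gas that activates soluble guanylate cyclase and modifies protein thiols and heme. Xanthine oxidoreductase, aldehyde oxidase, sulfite oxidase and heme proteins all have nitrite reductase activity when oxygen is low. Fructose is taken up by the liver and feeds triglyceride synthesis, and the same organ disposes of cholesterol either by turning it into bile acids, a route opened by cholesterol 7-alpha-hydroxylase (Cyp7a1), or by pumping it into bile through the ABCG5 and ABCG8 half-transporters.

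No probe set differed between fructose with nitrite and fructose at a fold change over 2 with a false discovery rate under 0.05. This is the criterion in the study's methods. With limma the smallest adjusted p was 0.584, 0 probe sets passed at any fold, and 1155 had an unadjusted p under 0.05, which is 5.2% of those tested. For preservatives against fructose, the study's text instead counts genes at the same fold change with a p-value under 0.05. The figure legend for that count names the false discovery rate. Under this looser criterion, a fold change over 2 with an unadjusted p under 0.05, 104 probe sets differed (0.468%). Of these, 77 were higher with nitrite (0.347%) and 27 lower (0.122%). In the following, a gene is called higher or lower when its unadjusted p was under 0.05, and none of these calls passed the false discovery rate in the fit described here. At that threshold, 2.76% of all probe sets were higher and 2.44% lower, and the groups did not overlap for 16.2% of them, 8.31% with nitrite above and 7.89% with nitrite below. The gene lists used below were chosen with earlier results of these data known, so their shares are descriptive and test nothing. Of the 104, 93 carried 1 gene symbol, 86 had groups that did not overlap and 91 stood above the median of the negative control probes on all arrays of the higher group. The median standard error of a difference was 0.28, and the 95% interval lay within a 2-fold change in either direction for 16718 probe sets (75.3%).

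**Figure D1:**
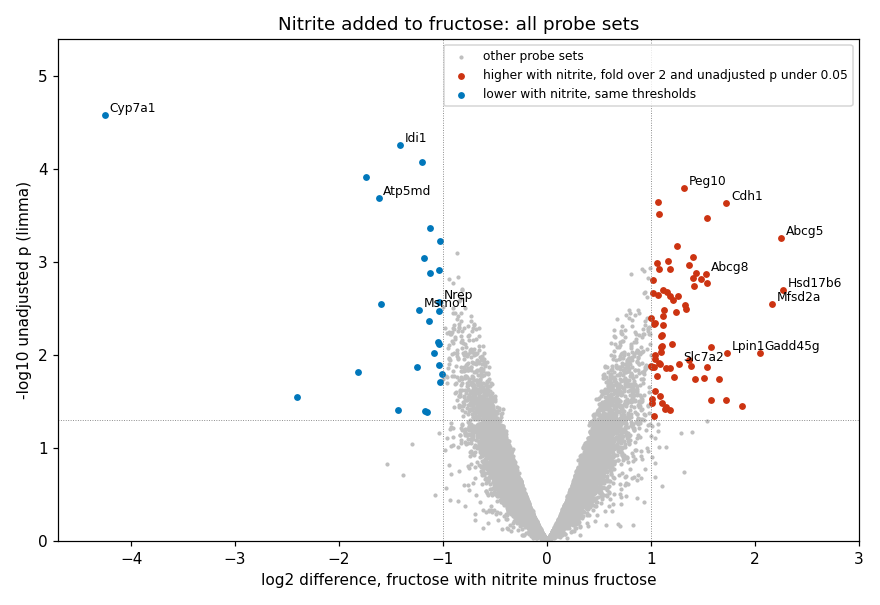
Each point is 1 of 22206 probe sets, with the log2 difference (fructose with nitrite minus fructose) on the x axis and −log10 of the unadjusted limma p on the y axis. Red points are the 77 higher and blue points the 27 lower at a fold change over 2 and an unadjusted p under 0.05; Cyp7a1 lies far to the left at −4.25.

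The 6 arrays were alike in depth of signal and correlated at 0.981 to 0.989, within and between groups. One array measure, called long-minus-ribosomal below and used there as a covariate, kept the groups apart. On each array the median of 28 very long, broadly expressed transcripts, minus the median of 49 cytosolic ribosomal protein genes (each relative to the fructose mean), was −0.42, 0.24 and 0.20 with fructose and 1.19, 0.56 and 0.63 with nitrite. All 3 nitrite arrays exceeded all 3 fructose arrays (exact permutation test, two-sided, p = 0.1, the smallest that 3 against 3 allows; 0.4 after adjustment over 12 array measures). On these 6 arrays the long-minus-ribosomal measure thus cannot be told apart from nitrite. A fit with it as a covariate can also take up a nitrite difference, so a call lost there does not show a cause. The first principal component of the 15 arrays, with 50.2% of the variance, also kept the groups apart, at −15.4, 13.4 and 12.1 with fructose and 30.6, 27.0 and 27.9 with nitrite. The hybridization controls, which are spiked in at fixed amounts, averaged 12.07 ± 0.14 (SD, n = 3) with fructose and 11.86 ± 0.16 (SD, n = 3) with nitrite.

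Cyp7a1, the rate-limiting enzyme of bile acid synthesis from cholesterol, showed the largest difference of all probe sets. Its log2 signal was 14.97, 17.08 and 15.80 on the fructose arrays and 11.22, 13.27 and 10.59 on the nitrite arrays. Every fructose array was above every nitrite array, and all 6 values were far above the negative controls. The difference was −4.25 (SE 0.76, 95% interval −5.85 to −2.66), a 19.1-fold lower signal, with an unadjusted p of 2.6e-05 and an adjusted p of 0.584 by limma. It kept an unadjusted p of at most 0.0016 in all 17 alternative fits, with differences from −5.04 to −3.69. Across the other groups, Cyp7a1 averaged 14.31 ± 0.43 with water, 12.26 ± 1.68 with benzoate and 15.15 ± 1.08 with sorbate (SD, n = 3 each). The direct contrasts by limma gave −0.56 for nitrite minus benzoate (95% interval −2.16 to 1.03, adjusted p = 0.999) and −3.45 for nitrite minus sorbate (95% interval −5.05 to −1.86, adjusted p = 0.0594). All sorbate arrays, and benzoate replicates 2 and 3, were low in Y-linked genes, unlike the nitrite arrays. Contrasts with sorbate, here and below, cannot be told apart from this Y-linked difference.

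Nr0b2, the small heterodimer partner, is a nuclear receptor known as a repressor of Cyp7a1 and was the only other called gene among 23 measured genes of bile acid synthesis and transport. It read 9.95, 9.28 and 10.29 with fructose and 10.78, 10.21 and 11.25 with nitrite. The groups overlapped, since the lowest nitrite array was below the highest fructose array, and the difference was 0.90 (SE 0.41, unadjusted p = 0.0393, adjusted p = 0.919 by limma). The call was lost in 7 of 17 alternative fits. Of the 23 genes, 12 were nominally above and 11 below the fructose mean, with a median difference of 0.22 against −0.01 over all probe sets. The 1 call each way was 4.35% of the list, against 2.76% of all probe sets higher and 2.44% lower. The list median was −0.042 without nitrite replicate 2, and −0.060 with 9 genes above and 3 called lower when the long-minus-ribosomal measure was a covariate.

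Genes of cholesterol synthesis lay below the fructose mean together. All 19 measured genes of the list had a negative difference, with a median of −0.51, and 3 passed the unadjusted threshold (15.8%, against 2.44% of all probe sets that were lower). Idi1, which isomerises isopentenyl diphosphate, read 13.59, 14.37 and 14.05 with fructose and 12.95, 12.33 and 12.48 with nitrite. The groups did not overlap, and the difference was −1.42 (SE 0.27, 95% interval −1.98 to −0.85, unadjusted p = 5.5e-05, adjusted p = 0.607 by limma). Msmo1, the sterol C4-methyl oxidase, read 10.06, 10.22 and 10.50 with fructose against 9.11, 8.29 and 9.68 with nitrite, a difference of −1.23 (SE 0.36, unadjusted p = 0.00332, adjusted p = 0.903 by limma). Cyp51, the lanosterol 14-alpha-demethylase, read 12.38, 13.29 and 13.04 against 12.23, 11.96 and 11.95, a difference of −0.86 (SE 0.30, unadjusted p = 0.0111, adjusted p = 0.903 by limma). For all 3 genes every nitrite array was below every fructose array. Without fructose replicate 2 the Cyp51 difference was −0.67 (unadjusted p = 0.0633 by limma), while Idi1 and Msmo1 stayed under the threshold in all 17 alternative fits.

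The other 16 members did not pass, among them Fdps, which makes farnesyl diphosphate (−1.04), Hmgcs1, which makes HMG-CoA (−0.69), and Srebf2, the transcription factor that drives the pathway (−0.01). The arrays within a group were far apart for this list. Its median relative to the fructose mean was −0.55, 0.28 and 0.24 on the fructose arrays and −0.10, −1.12 and −0.40 on the nitrite arrays, so fructose replicate 1 was below nitrite replicate 1. It was also low on the benzoate arrays, at −0.32, −0.42 and −0.72, but not on the sorbate arrays, at 0.46, 0.78 and 0.31. Without nitrite replicate 2 the median was −0.22 and 4 of the 19 genes were higher than the fructose mean. Without fructose replicate 1 it was −0.84 and 10 genes were lower at the threshold, and without nitrite replicate 1 it was −0.75 with 7. With the long-minus-ribosomal measure as a covariate, 10 genes were lower and the median was −0.97.

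Sterol-responsive promoters of this pathway commonly pair a binding site of SREBP with a CCAAT box bound by NF-Y, and the 250 bases before the start of the pair of genes with the largest differences are shown for that reason, 5′ to 3′ from RefSeq on GRCm38.p6. Capitals mark CCAAT, or ATTGG where the box is on the other strand. The Idi1 stretch is chr13:8885356-8885605 on the plus strand and the Msmo1 stretch chr8:64733579-64733828 on the minus strand.
Idi1: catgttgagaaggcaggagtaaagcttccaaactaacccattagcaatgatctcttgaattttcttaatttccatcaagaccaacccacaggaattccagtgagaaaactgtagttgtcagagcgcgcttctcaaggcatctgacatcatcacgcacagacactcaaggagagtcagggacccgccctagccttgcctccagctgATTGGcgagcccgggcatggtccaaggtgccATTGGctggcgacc
Msmo1: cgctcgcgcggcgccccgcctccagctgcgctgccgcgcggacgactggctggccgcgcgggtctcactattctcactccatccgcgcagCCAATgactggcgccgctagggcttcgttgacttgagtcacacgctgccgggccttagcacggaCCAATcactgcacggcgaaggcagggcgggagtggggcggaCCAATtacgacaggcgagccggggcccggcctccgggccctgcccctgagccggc
The Idi1 stretch held 2 copies, both as ATTGG, and the Msmo1 stretch held 3, all as CCAAT. Among 32851 promoter stretches of this length, 10.1% held 2 or more copies on either strand and 2.79% held 3 or more. The pair was picked by its differences in these data, and a role of the boxes was not tested.

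The ABCG5 and ABCG8 half-transporters, which join to export cholesterol and plant sterols into bile, were both higher with nitrite. Abcg5 read 9.20, 9.59 and 10.15 with fructose and 10.74, 13.09 and 11.87 with nitrite. Abcg8 read 10.45, 10.60 and 10.69 with fructose and 11.58, 12.69 and 12.08 with nitrite. Every nitrite array exceeded every fructose array for both genes, and nitrite replicate 2 was the highest for both. The differences were 2.25 for Abcg5 (SE 0.54, 95% interval 1.12 to 3.38, unadjusted p = 0.000553, adjusted p = 0.903 by limma) and 1.54 for Abcg8 (SE 0.40, 95% interval 0.69 to 2.39, unadjusted p = 0.00133, adjusted p = 0.903 by limma), and both calls held in all 17 alternative fits. Abcg5 averaged 12.41 with benzoate and 12.14 with sorbate, and Abcg8 12.33 and 11.88. Nitrite minus benzoate was −0.52 for Abcg5 (95% interval −1.64 to 0.61) and −0.21 for Abcg8 (95% interval −1.06 to 0.64), and nitrite minus sorbate was −0.24 (95% interval −1.37 to 0.89) and 0.24 (95% interval −0.61 to 1.09).

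Both genes are transcribed away from a shared stretch of DNA, which is shown because they moved together. Between the first base of Abcg5, on the minus strand, and that of Abcg8, on the plus strand, lie 109 bases at chr17:84683012-84683120 (RefSeq, GRCm38.p6, plus strand). Capitals mark TTATC, which is GATAA on the other strand and the core of GATA factor sites.
Abcg5 to Abcg8: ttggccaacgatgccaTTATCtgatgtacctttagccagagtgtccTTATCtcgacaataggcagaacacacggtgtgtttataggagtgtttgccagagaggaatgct
The stretch held 2 copies of GATAA or TTATC, and 0.788% of the 32851 stretches of this length just before a gene start held as many. This motif was marked for this stretch alone, so the share is descriptive, and a role of GATA factors was not tested.

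Among 36 measured genes of lipid droplets and lipoproteins, 4 were higher (11.1%, against 2.76% of all probe sets) and none lower by limma, with a median of 0.17. Besides Abcg5 and Abcg8 these were Scarb1 and Lpin1. Scarb1, the receptor that takes up cholesteryl esters from HDL, read 10.72, 10.53 and 10.76 with fructose and 11.05, 11.50 and 11.65 with nitrite, a difference of 0.73 (SE 0.28, unadjusted p = 0.0163, adjusted p = 0.916 by limma) with no overlap. It missed the threshold without fructose replicate 2 (unadjusted p = 0.0524) or nitrite replicate 3 (unadjusted p = 0.0691), by limma. Mfsd2a, a transporter of lysophosphatidylcholine that responds to fasting in mouse liver, was on none of the lists. It read 8.35, 8.19 and 8.30 with fructose and 10.43, 9.07 and 11.84 with nitrite, so the fructose arrays were tight and the nitrite arrays widely spread. It was 2.17 higher (SE 0.63, unadjusted p = 0.00282, adjusted p = 0.903 by limma).

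**Figure D2:**
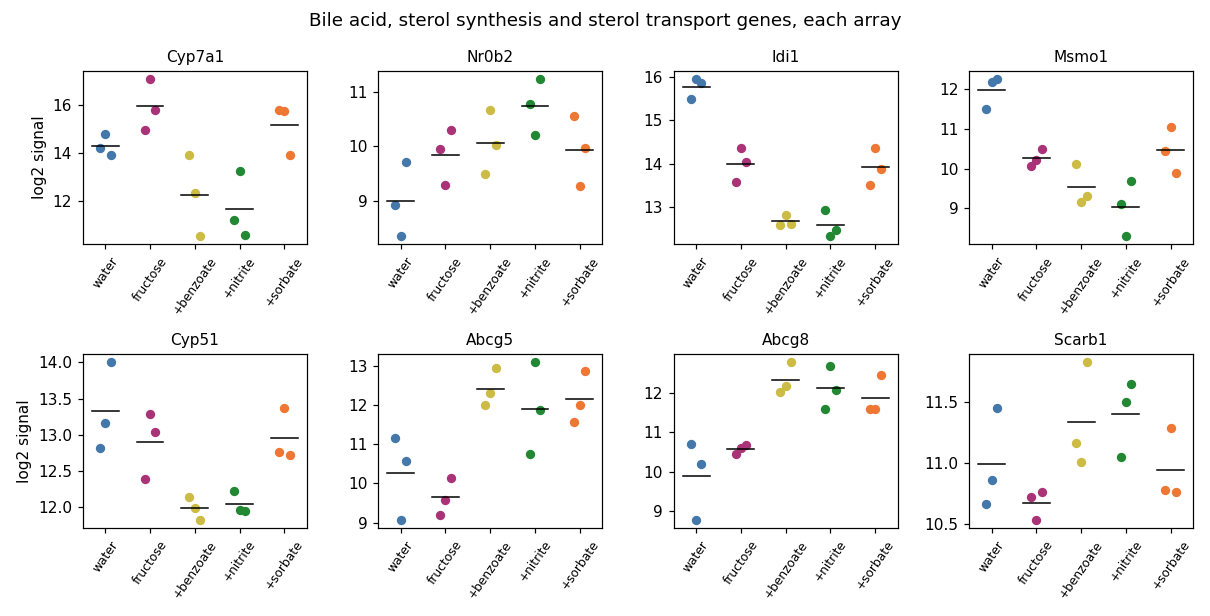
Log2 signal of 8 genes on each of the 15 arrays, by group; a point is an array and the line is the group mean of 3 arrays, and each panel has its own y axis. Cyp7a1, Idi1, Msmo1 and Cyp51 were lower and Nr0b2, Abcg5, Abcg8 and Scarb1 higher with nitrite than with fructose (unadjusted p under 0.05).

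Genes that the liver switches on under glucocorticoids and fasting lay above the fructose mean. Of 23 measured, 21 had a positive difference, 10 with no overlap between the groups (against 8.31% of all probe sets), and 6 were higher and 0 lower at the threshold (26.1%, against 2.76%), by limma. The median difference was 0.71, and the list median on each array was 0.05, −0.17 and 0.10 with fructose and 0.39, 0.96 and 0.79 with nitrite, with no overlap. The 6 genes had fitted differences over 1. Gadd45g, a stress-inducible gene, read 7.01, 6.72 and 6.29 with fructose and 8.82, 10.29 and 7.06 with nitrite. It was above the negative controls on 2 of the 3 fructose arrays. The difference was 2.05 (SE 0.71, unadjusted p = 0.00942, adjusted p = 0.903 by limma), but nitrite replicate 3 was just above the highest fructose array, and without nitrite replicate 2 the difference was 1.27 (unadjusted p = 0.0856). Lpin1, a phosphatidate phosphatase that also acts as a transcriptional coactivator, read 12.72, 10.74 and 12.32 against 13.97, 13.59 and 13.41, a difference of 1.73 (SE 0.60, unadjusted p = 0.00962, adjusted p = 0.903 by limma).

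Ppargc1a, the coactivator of gluconeogenic and mitochondrial genes, read 8.23, 8.62 and 8.31 with fructose and 9.09, 9.58 and 10.10 with nitrite. It was 1.20 higher (SE 0.40, unadjusted p = 0.00762, adjusted p = 0.903 by limma), and the call held in all 17 alternative fits. Dusp1, a phosphatase of MAP kinases, read 11.04, 9.72 and 9.75 against 12.27, 11.60 and 11.28 (difference 1.54, SE 0.56). Klf9, a transcription factor induced by glucocorticoid, read 12.46, 10.97 and 12.77 against 13.22, 12.73 and 13.37 (difference 1.04, SE 0.42), and its groups overlapped. Fructose replicate 2 was the lowest array for Lpin1 and Klf9. Without it only 2 of the 23 genes were higher, and Lpin1 (1.14, unadjusted p = 0.0786), Dusp1 (1.32, unadjusted p = 0.0548) and Klf9 (0.49, unadjusted p = 0.222) missed the threshold by limma. Dusp1 also missed it without fructose replicate 3 (unadjusted p = 0.0531) and without nitrite replicate 1 (unadjusted p = 0.0629), and with the long-minus-ribosomal covariate (1.17, unadjusted p = 0.138), by limma. Klf9 also missed it without nitrite replicate 1 (unadjusted p = 0.0609) or 3 (unadjusted p = 0.0788), after adjustment for the hybridization controls (0.80, unadjusted p = 0.0782) and with the covariate (1.12, unadjusted p = 0.0657), by limma. Without nitrite replicate 2 or 3, 4 genes were higher. Per1, a clock gene with a glucocorticoid response, was below the negative controls on all fructose arrays, at 5.92, 4.86 and 5.25. It read 6.29, 7.07 and 6.96 with nitrite, and nitrite replicate 1 was also below the negative controls. Against their median Per1 was at least 1.26-fold higher with nitrite (unadjusted p = 0.0182, adjusted p = 0.916 by limma). Its call was lost in 3 of 16 alternative fits.

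Several classical members did not pass. Tat, tyrosine aminotransferase, and Got1, aspartate aminotransferase, had no overlap and differences of 0.57 and 0.71 (unadjusted p = 0.0539 and 0.0506 by limma). The gluconeogenic genes Pck1 and G6pc differed by 1.04 and 0.87 with wide intervals, while Fkbp5 (−0.19), Mt1 (0.18) and Mt2 (0.10) were near 0. With the long-minus-ribosomal covariate, 7 of the 23 genes were higher and the median was 0.81.

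**Figure D3:**
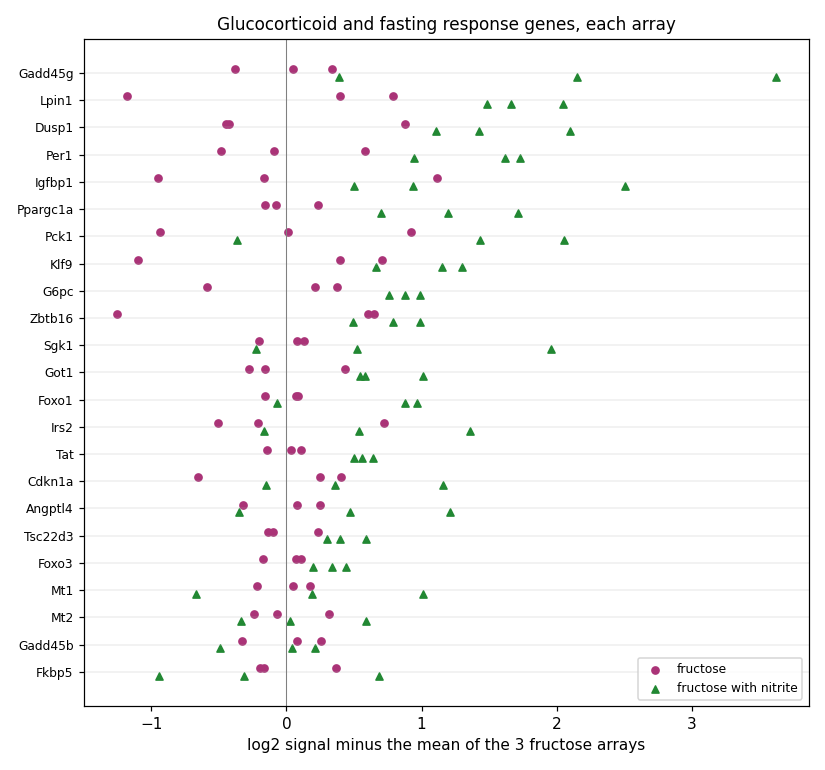
Log2 signal of 23 glucocorticoid and fasting response genes on each of the 6 arrays, minus the mean of the 3 fructose arrays (x axis), with genes ordered by the difference of means. Circles are fructose arrays and triangles fructose with nitrite; 21 genes had a nitrite mean above the fructose mean, and the groups did not overlap for 10 of them.

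Of 22 immediate early genes, which respond to stimuli within minutes, 4 were higher (18.2%, against 2.76% of all probe sets) and none lower by limma, with a median of 0.14. These were Dusp1, Jun, Jund and Zfp36. Zfp36, which destabilises cytokine mRNAs, read 9.69, 9.79 and 9.70 with fructose and 11.43, 10.56 and 10.97 with nitrite (difference 1.26, SE 0.36, unadjusted p = 0.00229, adjusted p = 0.903 by limma). It differed by 0.39 with the long-minus-ribosomal covariate (unadjusted p = 0.281 by limma). Jun, a subunit of the AP-1 factor, read 7.02, 7.05 and 6.42 against 8.26, 7.51 and 7.52 (difference 0.93, SE 0.30), and its call held in all 17 alternative fits, while that of Jund (0.55) was lost in 8. Jun was above the negative controls on 2 of the 3 fructose arrays. Among 19 clock genes Per1 and Cry2 (0.72) were higher (10.5%, against 2.76% of all probe sets). Among 37 genes of fatty acid oxidation and PPARA targets, Ppargc1a and Cpt1a were higher (5.41%, against 2.76% of all probe sets), with a median of 0.06. Cpt1a, the mitochondrial carnitine palmitoyltransferase, differed by 0.89 with overlap. The calls of Cry2 and Cpt1a were lost in 4 and 6 of 17 alternative fits, among them without fructose replicate 1 (0.52, unadjusted p = 0.128, and 0.72, unadjusted p = 0.114) and without nitrite replicate 2 (unadjusted p = 0.0822 and 0.124), by limma.

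Genes that handle nitrite and nitric oxide gave 4 calls in all. Of 15 measured genes with nitrite reductase activity or a part in the molybdenum cofactor, 1 was higher (6.67%, against 2.76% of all probe sets) and none lower, with a median of 0.18, and 8 intervals lay within a 2-fold change. Xdh, xanthine oxidoreductase, read 10.85, 11.16 and 11.08 with fructose and 12.20, 11.88 and 11.80 with nitrite. The groups did not overlap and the difference was 0.92 (SE 0.36, 95% interval 0.16 to 1.68, unadjusted p = 0.0199, adjusted p = 0.919 by limma). The same gene averaged 11.95 with benzoate and 12.09 with sorbate, and nitrite minus benzoate was 0.00 (95% interval −0.76 to 0.76) and nitrite minus sorbate −0.13 (95% interval −0.89 to 0.63). Xdh was sensitive to the fit: the difference was 0.17 (unadjusted p = 0.678 by limma) with the long-minus-ribosomal covariate and 0.50 (unadjusted p = 0.0601) after adjustment for the hybridization controls. Leaving out fructose replicate 1 or nitrite replicate 1 gave 0.84 (unadjusted p = 0.0601) and 0.80 (unadjusted p = 0.0691), by limma. The aldehyde oxidases Aox1 and Aox3 differed by 0.43 (95% interval −0.34 to 1.20) and 0.18 (−0.84 to 1.19), and sulfite oxidase, Suox, by 0.40 (−0.16 to 0.97).

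Among 14 measured genes of nitric oxide synthases and their supply, Slc7a2 and Ddah1 were higher (14.3%, against 2.76% of all probe sets) and Pts was lower (7.14%, against 2.44%), with a median of 0.05. Slc7a2, which carries arginine into the cell, read 13.62, 13.56 and 14.23 with fructose and 14.40, 15.73 and 15.08 with nitrite (difference 1.27, SE 0.46, unadjusted p = 0.0124, adjusted p = 0.903 by limma). Ddah1, which breaks down the inhibitor asymmetric dimethylarginine, read 12.44, 13.09 and 13.77 against 14.28, 14.35 and 13.98 (difference 1.11, SE 0.36, unadjusted p = 0.00617, adjusted p = 0.903 by limma). Pts, which makes a precursor of the cofactor tetrahydrobiopterin, read 11.03, 10.72 and 10.97 against 10.10, 10.24 and 10.52 (difference −0.62, SE 0.22, unadjusted p = 0.011, adjusted p = 0.903 by limma). None of the 3 overlapped between groups, although Slc7a2 missed the threshold without nitrite replicate 2 (0.94, unadjusted p = 0.0758), and Ddah1 missed it without fructose replicate 1 (0.77, unadjusted p = 0.0517). With the long-minus-ribosomal covariate Ddah1 differed by 0.40 (unadjusted p = 0.332) and Pts by −0.35 (unadjusted p = 0.22). The endothelial synthase Nos3 was below the negative controls on all 6 arrays. No called gene was found among 8 genes of nitric oxide sensing, whose 8 intervals all lay within a 2-fold change, or among 11 genes of denitrosation and globins, of which 10 did.

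Of 32 measured genes of oxidative stress, 27 did not pass, 3 were higher (9.38%, against 2.76% of all probe sets) and 2 lower (6.25%, against 2.44%) by limma, with a median of 0.09. Gpx4, the peroxidase that protects membrane lipids, read 12.92, 12.70 and 12.75 with fructose and 11.22, 12.61 and 12.15 with nitrite (difference −0.80), and Prdx1, a peroxiredoxin, was also lower (−0.44). Nfe2l2, the transcription factor NRF2, was 0.74 higher, as were Gstm4 (0.68) and Ephx1 (0.54), both enzymes of detoxification. These calls were lost in several alternative fits, 7 of 17 for Nfe2l2, 8 for Prdx1, 5 for Gstm4 and 2 for Gpx4. Without fructose replicate 1, Nfe2l2 differed by 0.39 (unadjusted p = 0.261), Gstm4 by 0.46 (unadjusted p = 0.17) and Prdx1 by −0.35 (unadjusted p = 0.151), and without nitrite replicate 1, Gpx4 differed by −0.41 (unadjusted p = 0.136), by limma. Nfe2l2 was at 0.11 (unadjusted p = 0.781) and Gpx4 at −0.18 (unadjusted p = 0.581) with the long-minus-ribosomal covariate, by limma. Of 25 heme and iron genes, Bmp6, a ligand that induces hepcidin, was lower (−0.77) and Steap3, a ferrireductase, higher (0.65), with a median of 0.03. Each call was 4% of the list, against 2.44% of all probe sets lower and 2.76% higher. The Bmp6 call was lost without nitrite replicate 1 (−0.55, unadjusted p = 0.11) or fructose replicate 3 (unadjusted p = 0.0746), and the Steap3 call without nitrite replicate 3 (0.34, unadjusted p = 0.254) or fructose replicate 2 (unadjusted p = 0.142) or 3 (unadjusted p = 0.0553), by limma.

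Of 36 drug-metabolising genes, 3 were higher (8.33%, against 2.76% of all probe sets) and none lower by limma. Cyp2a5 was the most clearly different of them in the comparison with fructose. The enzyme oxidises coumarin and nicotine, and it read 13.68, 12.99 and 13.08 with fructose and 14.20, 14.60 and 14.15 with nitrite. The difference was 1.07 (SE 0.23, 95% interval 0.58 to 1.55, unadjusted p = 0.000228, adjusted p = 0.643 by limma) with no overlap, and the call held in all 17 alternative fits. Cyp2a5 averaged 15.74 with benzoate and 15.78 with sorbate, above the nitrite mean of 14.32. Nitrite minus benzoate was −1.42 (95% interval −1.91 to −0.93) and nitrite minus sorbate −1.46 (95% interval −1.95 to −0.97). Cyp2f2, an enzyme of periportal hepatocytes, was 0.83 higher with the call lost in 5 of 17 alternative fits, and Nr1i2, the pregnane X receptor, 0.56 higher. Among 24 genes of the urea cycle and amino acid metabolism, 2 were higher (8.33%, against 2.76% of all probe sets) and none lower by limma. Hal, histidine ammonia-lyase, read 14.01, 14.14 and 14.37 against 15.37, 15.27 and 15.10 (difference 1.08, SE 0.28, unadjusted p = 0.0012, adjusted p = 0.903 by limma). Gldc, of the glycine cleavage system, read 11.46, 11.65 and 11.61 against 12.50, 12.50 and 12.29 (difference 0.86, SE 0.29). With the long-minus-ribosomal covariate Hal differed by 0.70 (unadjusted p = 0.0614) and Gldc by 0.27 (unadjusted p = 0.421).

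No gene of de novo lipogenesis or of fructose and glucose metabolism was called in the fit of all 15 arrays. The 17 lipogenic genes had a median difference of 0.44, but the direction depended on the arrays and the fit, and their spread within groups was wide: the list median on each array was −0.78, 0.45 and 0.43 with fructose and 0.76, −0.74 and 0.55 with nitrite, so that fructose replicate 1 and nitrite replicate 2 stood low. The lipogenic median was −0.047 without fructose replicate 1, 0.050 without nitrite replicate 1, and −0.81 with 4 of 17 genes called lower when the long-minus-ribosomal measure was a covariate. Fasn, fatty acid synthase, read 11.96, 14.62 and 14.77 with fructose and 16.22, 12.73 and 15.00 with nitrite (difference 0.87, 95% interval −1.02 to 2.75), and differed by −1.71 with that covariate (unadjusted p = 0.0335 by limma). Thrsp, a lipogenic regulator, read 16.40, 16.50 and 16.43 with fructose and 16.94, 11.61 and 16.15 with nitrite (−1.54, 95% interval −3.69 to 0.61), and without nitrite replicate 2 the difference was 0.11. Only 1 of the 17 intervals lay within a 2-fold change, so changes of that size were not detectable for most of these genes. Of the 21 genes of fructose and glucose metabolism, 20 were nominally above the fructose mean with a median of 0.47, and Khk, ketohexokinase, which phosphorylates fructose, differed by 0.14.

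Calls among subunits of the respiratory chain and ribosomal proteins were all lower, and those among very long transcripts all higher, although most genes of each list did not pass. Of 74 respiratory chain genes, 56 did not pass, 18 were lower and none higher (24.3%, against 2.44%), with a median of −0.27. Relative to the fructose mean, the list median was −0.36, −0.30 and −0.21 on the nitrite arrays. It was −0.12, −0.60 and −0.49 on the benzoate arrays and −0.78, −0.22 and −0.22 on the sorbate arrays. A low list median was thus not particular to nitrite. Atp5md, a small subunit of ATP synthase, read 14.45, 13.76 and 13.66 with fructose and 11.78, 12.86 and 12.39 with nitrite (difference −1.62, SE 0.35, unadjusted p = 0.000204, adjusted p = 0.643 by limma). Cox7b, of cytochrome c oxidase, read 14.66, 14.01 and 14.14 against 12.75, 13.47 and 13.50 (difference −1.03, SE 0.25). Other called genes were Ndufs5, Ndufb4, Cox7a2, Atp5l and Uqcrh. Timm8b, a chaperone of mitochondrial import, was not on the list and differed by −1.04.

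Of 49 cytosolic ribosomal protein genes, 9 were lower (18.4%, against 2.44% of all probe sets) and none higher, with a median of −0.36. Rpl39 read 12.84, 12.07 and 12.35 with fructose and 11.38, 11.85 and 11.43 with nitrite (−0.86), and Rpl41 14.87, 14.34 and 14.64 against 12.98, 14.49 and 13.75 (−0.88, with overlap). Nitrite replicate 2 was close to the fructose arrays for this list, at −0.04, while nitrite replicates 1 and 3 were at −0.69 and −0.42. Of 28 very long transcripts, 7 were higher (25%, against 2.76% of all probe sets) and none lower, with a median of 0.38. Among the 7 was Dync1h1, the dynein heavy chain, at 9.25, 10.07 and 10.37 against 11.18, 10.94 and 11.29 (difference 1.24, SE 0.37). Since ribosomal and long transcripts define the covariate, none of them was called with it, by construction, but the respiratory genes also went from 18 lower to 1, with a median of 0.00. Without fructose replicate 1, the array with the lowest long-transcript median, 6 respiratory genes and 2 long transcripts were called, and without nitrite replicate 1, 8 respiratory and 4 ribosomal genes were lower. Without nitrite replicate 2, 16 ribosomal genes were lower. The part of transcript length or RNA quality in these differences was not tested further.

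**Figure D4:**
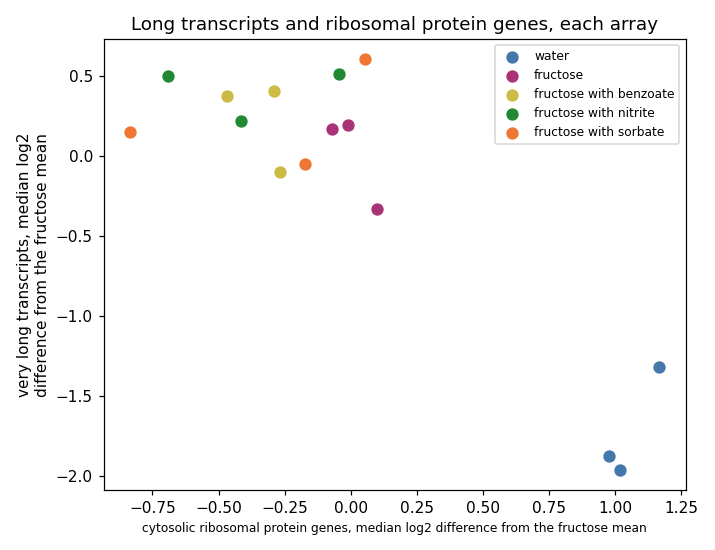
Each point is 1 of 15 arrays; the x axis is the median of 49 cytosolic ribosomal protein genes and the y axis that of 28 very long transcripts, both as log2 differences from the fructose mean. The 3 nitrite arrays lay above the 3 fructose arrays on the y axis, and the water arrays lay far from all others.

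Marker genes of liver cell types were compared in the same way. In whole liver, fewer cells of a type and less RNA per cell cannot be told apart. Hepatocyte markers were detected, with differences from −0.21 to 0.57: all 13 were above the negative controls on all 6 arrays, none was called, and 11 intervals lay within a 2-fold change, with a median of 0.02. All 14 markers of sinusoidal endothelium had a positive difference, with a median of 0.34, and 4 were higher (28.6%, against 2.76%), namely Cdh5, Eng, Stab2 and Pecam1. Cdh5, the endothelial cadherin, read 9.18, 9.85 and 9.83 with fructose and 10.17, 10.37 and 10.93 with nitrite (difference 0.87, SE 0.36, unadjusted p = 0.0272, adjusted p = 0.919 by limma). The list median was −0.22, 0.06 and 0.17 with fructose and 0.35, 0.51 and 0.32 with nitrite, with no overlap. On the benzoate arrays it was 0.29, 0.73 and 0.89, and on the sorbate arrays 0.79, 0.82 and 0.92. A higher list median was thus not particular to nitrite. With the long-minus-ribosomal covariate 1 of the 14 was called, and likewise 1 without fructose replicate 1 or without nitrite replicate 3.

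Of 14 Kupffer cell and macrophage markers, 1 was higher (7.14%, against 2.76% of all probe sets), namely Csf1r, the receptor of colony-stimulating factor 1 (0.70). The list median was 0.21, with nitrite replicate 2 highest at 0.63. Without that array the median was −0.0645, 6 of 14 genes were above the fructose mean and Csf1r was not called (0.59, unadjusted p = 0.0576 by limma), nor was it with the long-minus-ribosomal covariate (0.38, unadjusted p = 0.255). Of 16 stellate cell and matrix markers, 2 were lower (12.5%, against 2.44% of all probe sets), with a median of 0.01. These were Lrat, which makes retinyl esters (−0.90), and Hgf, hepatocyte growth factor (−0.62). Without fructose replicate 2 neither was called (−0.58, unadjusted p = 0.189, and −0.44, unadjusted p = 0.181, by limma), and neither was without nitrite replicate 1 (unadjusted p = 0.0678 and 0.109). Lymphocyte, neutrophil, cholangiocyte and pancreatic acinar markers were mostly at the level of the negative controls, with 10 of 12, 8 of 9, 5 of 7 and 9 of 10 below their median on all 6 arrays.

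Inflammatory genes gave almost no calls. Of 29 interferon response genes, 16 genes of MHC antigen presentation and 28 cytokines and chemokines, none was called by limma, and the medians were −0.08, 0.04 and −0.07. For the interferon list 27 of 29 intervals, and for the MHC list 14 of 16, lay within a 2-fold change, so a change over 2-fold lay outside the interval of most of these genes. Of the cytokines, 13 were below the negative controls on all 6 arrays. Among 26 acute phase genes only Apcs, serum amyloid P, was lower (3.85%, against 2.44% of all probe sets). It read 11.50, 11.44 and 11.39 with fructose and 10.11, 10.75 and 11.00 with nitrite (difference −0.82). Without nitrite replicate 1 it missed the threshold (−0.57, unadjusted p = 0.124 by limma), as it did without fructose replicate 1 (unadjusted p = 0.0504) and with the covariate (unadjusted p = 0.17). Among 22 genes of the unfolded protein response, 2 were higher (9.09%, against 2.76% of all probe sets) and none lower. These were Ern1, a sensor of the response (0.60), and Chac1. Chac1 was below the negative controls on all fructose arrays and overlapped between groups, so that no fold is given. The Ern1 call was lost in 4 of 17 alternative fits, including those without fructose replicate 1 (unadjusted p = 0.0581) or nitrite replicate 1 (unadjusted p = 0.069), by limma. No heat shock (17) or cell cycle (24) gene was called.

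**Figure D5:**
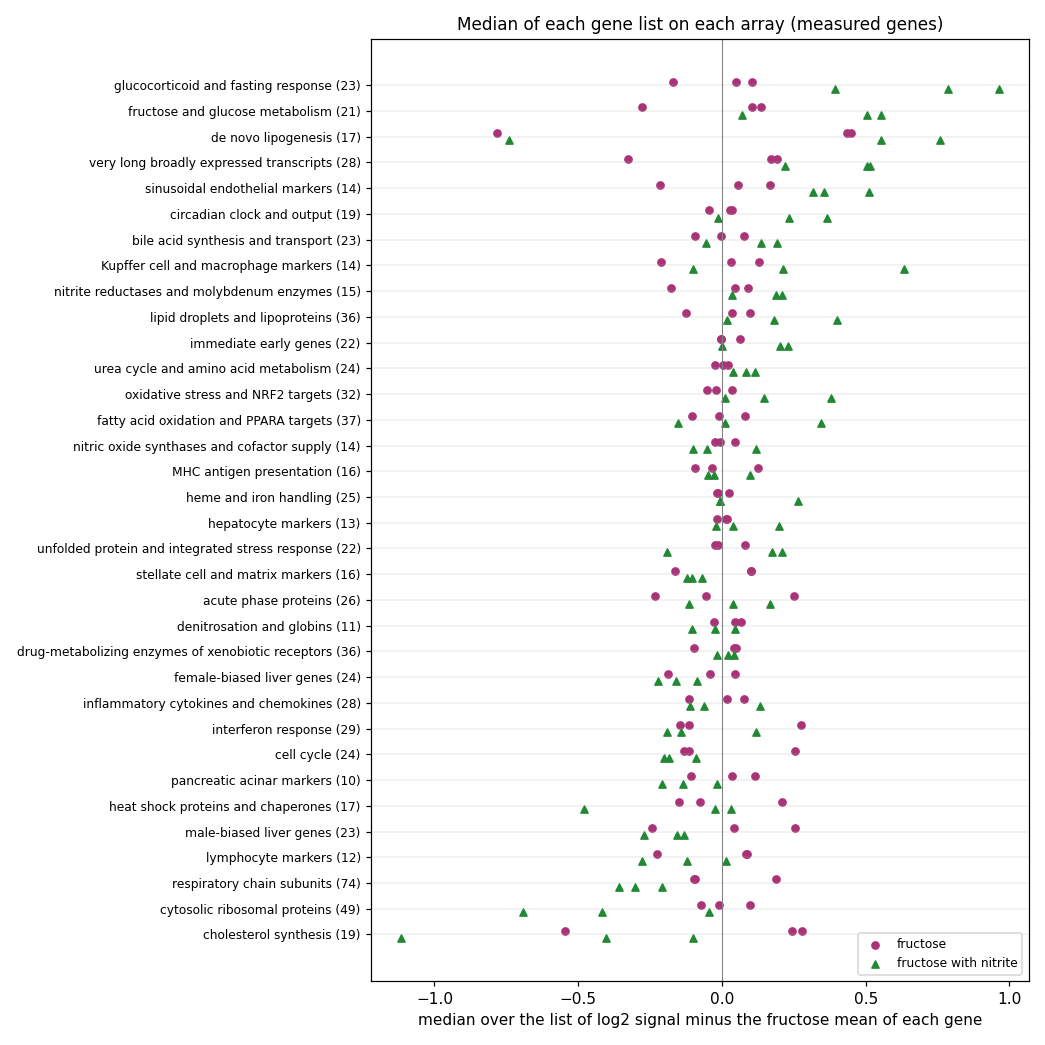
For each gene list with 10 or more measured genes (number in parentheses), the median over its genes of log2 signal minus the fructose mean of the gene (x axis) on each of the 6 arrays. Circles are fructose arrays and triangles fructose with nitrite; the glucocorticoid and fasting list lay at 0.39, 0.96 and 0.79 with nitrite, and the cholesterol synthesis list reached down to −1.12 on nitrite replicate 2.

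Genes outside these groups made up the rest of the largest differences. Hsd17b6, a hydroxysteroid dehydrogenase listed here only among female-biased liver genes, read 10.79, 11.10 and 11.11 with fructose and 12.28, 14.49 and 13.06 with nitrite (difference 2.27, SE 0.63, unadjusted p = 0.002, adjusted p = 0.903 by limma). Cdh1, E-cadherin, read 9.70, 10.00 and 10.64 against 11.92, 12.25 and 11.36 (difference 1.73, SE 0.38, unadjusted p = 0.000232, adjusted p = 0.643 by limma). The groups did not overlap for either gene, and both calls held in all 17 alternative fits. Higher too were Gabbr2, a subunit of the GABA-B receptor (1.66), Sik1, a salt-inducible kinase (1.58), Kcnk5, a potassium channel (1.58), and Rnf152, a ubiquitin ligase (1.54). The Gabbr2 call was lost in 4 of 17 alternative fits, with 1.06 without fructose replicate 1 (unadjusted p = 0.125 by limma) and 0.12 with the long-minus-ribosomal covariate (unadjusted p = 0.853), where Rnf152 differed by 1.04 (unadjusted p = 0.068). The Sik1 call was lost in 6, with 0.94 without nitrite replicate 2 (unadjusted p = 0.197), and also without fructose replicate 1 (unadjusted p = 0.0779) or 2 (unadjusted p = 0.0592), by limma. Sik1 was above the negative controls on only 1 of the 3 fructose arrays, so its difference is measured from near their level. Peg10, an imprinted gene derived from a retrotransposon, was below the negative controls on all fructose arrays (5.73, 5.87 and 6.10) and above them on all nitrite arrays (6.93, 7.53 and 7.21), at least 1.72-fold higher (unadjusted p = 0.00016, adjusted p = 0.643 by limma). Peg10 was also higher with nitrite than with sorbate (difference 1.61, adjusted p = 0.013 by limma), a contrast that cannot be told apart from the Y-linked difference. Its benzoate mean was 5.72.

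Among lower genes, 2900060B14Rik, an RNA named after a clone, read 14.18, 14.11 and 13.95 with fructose and 12.11, 12.69 and 12.22 with nitrite (difference −1.74, SE 0.36, unadjusted p = 0.000121, adjusted p = 0.643 by limma). Nrep, a neuronal regeneration related protein, averaged 8.27 ± 0.26 with fructose and 7.23 ± 0.49 with nitrite (SD, n = 3 each, difference −1.04). Its difference from sorbate was −1.49 (adjusted p = 0.032 by limma), again not to be told apart from the Y-linked difference. Tmem256, a small membrane protein, was lower too (−1.13). Nek10, a kinase, fell from above to below the negative controls, by at least 1.10-fold, and Vmn1r210, a vomeronasal receptor, was below the negative controls on all 6 arrays and is given no fold.

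Against the other preservatives, the nitrite arrays differed from benzoate at 0 probe sets under the study's criterion and from sorbate at 82 (0.369%), 27 higher and 55 lower with nitrite. The sex-linked genes differed along with these comparisons. The mean of 3 Y-linked genes was 9.37 to 10.0 on all 6 fructose and nitrite arrays and on benzoate replicate 1, but 3.39 to 4.17 on benzoate replicates 2 and 3 and on all sorbate arrays, so nitrite and sorbate cannot be told apart from this Y-linked difference. The fructose and nitrite arrays overlapped in it. By limma, 1 of 24 female-biased (4.17%) and 1 of 23 male-biased liver genes (4.35%) were higher with nitrite, against 2.76% of all probe sets, and none lower. Elovl3, a fatty acid elongase with male bias, read 16.99, 16.60 and 16.86 with fructose and 16.63, 16.07 and 17.01 with nitrite but averaged 5.97 with sorbate. On the benzoate arrays it read 14.53, 6.27 and 5.77, and nitrite minus benzoate was 7.71 (SE 1.37, adjusted p = 0.133 by limma). With the benzoate arrays split in this way, the count of 0 does not show that nitrite and benzoate livers were alike. Nitrite minus sorbate was −1.33 for Idi1 (adjusted p = 0.035 by limma) and −1.46 for Cyp2a5 (adjusted p = 0.0094).

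The fit of all 15 arrays shares 1 estimate of spread, so genes that vary in other groups have wide standard errors here. Cyp4a12b, a male-biased fatty acid hydroxylase, read 14.76, 14.65 and 15.04 with fructose and 15.54, 15.31 and 15.67 with nitrite, with a standard error of 1.51 and an unadjusted p of 0.654 by limma. The benzoate arrays were split for this gene, at 15.17, 5.24 and 6.52. In a fit of the 6 arrays alone, its difference of 0.69 had an unadjusted p of 0.00662 by limma. Cyp2a4, a female-biased enzyme with an SD of 1.61 among the benzoate arrays, had an unadjusted p of 0.00681 in that fit (difference 0.83). Csad, an enzyme of taurine synthesis (−0.96, unadjusted p = 0.0263), and Insr, the insulin receptor (0.62, unadjusted p = 0.0339), also passed in the 6-array limma fit. Their SDs were 1.07 and 1.12 among the water arrays. Both differences changed sign with the long-minus-ribosomal covariate, to 0.083 and −0.17. Sult3a1 was below the negative controls on all 6 arrays and is given no fold. Me1, Aldh3a2, Abca1, Cxcl1, Ccl9, Cyp2b9, Cyp2b10 and Gbp3 were called in neither fit.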

How the data were processed

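Liver RNA was measured on 15 Clariom S arrays, 3 in each of 5 groups. The table deposited by the authors holds 1 log2 signal for each probe set and array, made with SST-RMA (background correction, between-array normalization and summary of probes) in Transcriptome Analysis Console per the methods; the submitters' processing notes name RMA, Affymetrix Expression Console 1.4 and Transcriptome Analysis Console. RMA shrinks differences of dim probe sets, and the number of arrays limits precision. The genome build is not given in the sources used here. Of 28846 entries, 6640 control probes were left out; 19572 probe sets had 1 gene symbol in the platform annotation and 2634 had none.

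The values were fitted as deposited with limma 3.58.1 in R 4.3.3 (a mean per group over all 15 arrays, default eBayes), with Benjamini-Hochberg adjustment over 22206 probe sets and 95% intervals; the script was tested on simulated data. The dim limit was the median of 5222 negative control probes on each array, and "at least" folds were computed against it. For a gene with several probe sets the one with the highest mean was used. Genes were named by rule (the 10 largest differences each way at a fold over 2 and an unadjusted p under 0.05 with no overlap, the 5 lowest p, up to 2 each way per list, all called genes of the nitrite and nitric oxide lists, genes the study names, and Y-linked genes). Abcg8, Scarb1, Cyp51, Klf9, Jun, Jund, Stab2, Pecam1, Tat, Got1, Thrsp, Fasn and the uncalled list members given as examples, and those called in small counts, were named after their values were seen. The 41 gene lists and the members were chosen with earlier results of these data known. Replicate numbers did not pair the arrays. Promoter sequences came from RefSeq (GRCm38.p6).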

Additional observations from a re-analysis of the deposited data

How the results depend on the processing

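Of 64 named genes called at an unadjusted p under 0.05, all 64 kept their direction and 30 kept the call in every alternative other than the long-minus-ribosomal covariate. The 64 were selected by that threshold on the same arrays, so agreement between fits, here and above, is not independent evidence. No fit but one gave a gene at the false discovery rate. With 104 probe sets at a fold over 2 and an unadjusted p under 0.05 (74% of them higher), other scalings, filters, variance models, weights and sample sets gave 89 to 116. Quantile normalization gave 67% higher. Adjusting for the hybridization controls gave 90 (58 higher and 32 lower, 64.4% higher), of which 58 were among the 104. Array weights, the 6 arrays alone and the 12 fructose arrays gave 2247, 2223 and 1793 probe sets at an unadjusted p under 0.05, against 1155.

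Replicate numbers are shared between groups, but same-numbered arrays did not deviate together (r = 0.003, −0.040 and 0.038). With the number as a block, 105 probe sets passed the looser criterion and 1, Cyp7a1, passed the false discovery rate (adjusted p = 0.04 by limma).

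Leaving out 1 array gave 93 to 213 probe sets, 61 to 145 higher and 32 to 69 lower: 202 without fructose replicate 2, 213 without fructose replicate 3, and 181 without nitrite replicate 2. The lower count was 48 without nitrite replicate 1 and 53 without nitrite replicate 3. The long-minus-ribosomal covariate, chosen after the data were seen, gave 238 (137 higher and 101 lower, 57.6% higher), of which 46 were among the 104, and 688 at an unadjusted p under 0.05; the cause was not tested.

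Signs turned only for genes not called in the fit of all 15 arrays, of which Insr, Csad and Sult3a1 had an unadjusted p under 0.05 in the fit of 6. With the hybridization covariate these were Me1 (−0.20), Cyp2b9 (−1.18), Cyp2b10 (−0.014), Elovl3 (0.66), Sult3a1 (−0.10), Eif2s3y (0.46) and Uty (0.37). With the long-minus-ribosomal covariate they were Me1 (−1.07), Insr (−0.17), Csad (0.083), Abca1 (−0.022), Cyp2b9 (−3.60), Cyp2b10 (−1.02), Elovl3 (2.04), Sult3a1 (−1.93), Eif2s3y (1.44), Uty (1.73) and Fasn (−1.71).
Leaving out 1 array, the range of the difference spanned 0 for Me1 (−0.26 to 0.63), Cyp2b9 (−0.089 to 0.60), Fasn (−0.047 to 1.83), Aox3 (−0.38 to 0.52), Kdm5d (−0.027 to 0.33), Aldh3a2 (−0.28 to 0.15), Ccl9 (−0.43 to 0.76), Elovl3 (−0.46 to 0.0086) and Thrsp (−2.56 to 0.11).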
